A study of Mus musculus with 4 samples.

Results

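Expression of 10 genes that transcribe, copy and maintain the mitochondrial genome and its RNA was compared between young and old intestinal stem cells (ISCs). The genes were taken by name from the 52459 genes listed in the counts, and all 10 were found: Polrmt, Tfam, Tfb2m, Tefm, Polg, Polg2, Tfb1m, Fastkd2, Lrpprc and Slirp. The young group (ISC_2mth) came from wild-type C57/Bl6 female mice aged 2 months and the old group (ISC_22mth) from such mice aged 22 months, with no other treatment or allele in either group. Each group had 2 libraries, and each library was made from ISCs of a pool of 5 animals, so that differences between animals within a pool cannot be seen. ISCs were sorted from small intestinal crypts as cells positive for EPCAM and CD166, high for EPHB2 and CD44, medium for CD24, low for GRP78 and negative for CD45 and CD31. Their RNA was amplified along the whole transcript (SPIA) and sequenced as single-end reads, which were counted per gene.

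Mitochondria carry a small circular genome that encodes respiratory chain proteins, ribosomal RNAs and transfer RNAs, and every protein that copies or transcribes it is encoded in the nucleus. Transcription uses the single-subunit RNA polymerase POLRMT, the packaging and promoter factor TFAM, the promoter-melting factor TFB2M and the elongation factor TEFM, while DNA polymerase gamma (POLG with its accessory subunit POLG2) replicates the genome. TFB1M methylates the small ribosomal RNA, FASTKD2 helps to assemble the large mitochondrial ribosomal subunit, and the complex of LRPPRC and SLIRP stabilises mitochondrial mRNAs.

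Promoters of the 10 genes, taken from RefSeq on GRCm38.p6 as 250 bases before and 50 bases after the start site, all matched by symbol. They were searched on both strands for the core of the nuclear respiratory factor 1 (NRF1) motif GCATGCG, the core of the ETS motif CCGGAAG that GABP binds, and the SP1 box GGGCGG, none of which contains another. The ETS core was found in 6 of the 10 promoters (Polrmt, Tfam, Tefm, Polg, Polg2 and Slirp), compared with 17.8% of the 12068 promoters of genes tested here and 8.9% of all 32851 promoters. The NRF1 core was found in 2 (Polrmt and Tfb2m), compared with 6.4% of promoters of genes tested and 3.6% of all. The SP1 box was found in 5, compared with 61.1% and 35.7%. A match describes the letters only. The promoters of Polrmt (chr10:79746532-79746831, minus strand) and Fastkd2 (chr1:63730375-63730674, plus strand) are shown because these genes had the lowest p among the genes lower and higher in old ISCs, and that of Tfam (chr10:71237995-71238294, minus strand) because of its ratio to Polrmt given further on. They are written 5′ to 3′ along the gene, with every motif match on either strand in capitals.
Polrmt: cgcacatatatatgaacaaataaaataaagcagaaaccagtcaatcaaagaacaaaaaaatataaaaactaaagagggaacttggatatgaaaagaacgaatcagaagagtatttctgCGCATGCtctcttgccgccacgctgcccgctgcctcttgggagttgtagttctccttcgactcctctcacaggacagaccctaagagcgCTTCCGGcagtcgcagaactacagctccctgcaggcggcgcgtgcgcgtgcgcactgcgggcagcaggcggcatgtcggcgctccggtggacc
Tfam: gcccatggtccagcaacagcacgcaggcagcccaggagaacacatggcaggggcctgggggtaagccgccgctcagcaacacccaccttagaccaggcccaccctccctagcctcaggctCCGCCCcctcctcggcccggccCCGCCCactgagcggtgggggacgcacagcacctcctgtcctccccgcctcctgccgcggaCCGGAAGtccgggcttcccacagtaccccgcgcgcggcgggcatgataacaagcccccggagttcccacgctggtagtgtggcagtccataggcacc
Fastkd2: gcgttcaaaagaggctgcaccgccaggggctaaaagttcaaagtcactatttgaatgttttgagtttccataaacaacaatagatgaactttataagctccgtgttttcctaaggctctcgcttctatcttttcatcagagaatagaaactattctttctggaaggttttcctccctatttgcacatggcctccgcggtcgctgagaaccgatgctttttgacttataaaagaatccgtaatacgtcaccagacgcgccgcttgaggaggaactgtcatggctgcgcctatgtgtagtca
In Polrmt the NRF1 core ended 125 bases and the ETS core 36 bases before the start site, both on the opposite strand. In Tfam the ETS core ended 40 bases before the start site. The Fastkd2 window held none of these letters.

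Libraries held between 11662654 and 15975698 counts. Mitochondrially encoded genes took 62.6% and 65.7% of them in young ISCs and 73.8% and 72.9% of them in old ISCs, which left between 3852178 and 4593004 counts on all other genes. Counts were therefore scaled by the TMM method, which compares libraries through the bulk of genes, and are given as CPM, the normalised read count relative to the scaled library size. All 11 ISC markers were detected, and their summed level was between 2774 and 3093 CPM in all libraries. Within the list, Cd24a was called higher in old ISCs (log2 fold change 0.68, edgeR FDR = 0.0035). The others did not pass the test: Lgr5, Olfm4, Sox9, Axin2, Ephb2 and Cd44 had values between -0.52 and -0.077, and Ascl2, Smoc2, Epcam and Alcam values between 0.056 and 0.33. Axin2 (-0.46, FDR = 0.051) and Ephb2 (-0.52, FDR = 0.058) had the lowest p among these. Leukocyte markers were nearly absent apart from Itgam, which was called higher, with 3 of 8 markers at 0 in every library. Endothelial markers summed to at most 7 counts and fibroblast markers to at most 2 counts in a library. Paneth cell markers summed to 1592 CPM in ISC_22mth replicate 1 and to between 520 and 684 CPM in the other libraries, with 2 of 5 called higher, beside 1.63% of all genes. Of the tuft cell markers, Dclk1 was called higher (counts of 4 and 4 at 2 months and of 42 and 19 at 22 months), a gene that passed the filter on low counts only through the old group. Enterocyte markers summed to 226 and 343 CPM in young ISCs and to 671 and 557 CPM in old ISCs. Of these 7 markers, 3 were called higher, beside 1.63% of all genes. Every marker called here is also among the genes that the study reported as different between ages in these libraries. The lists were chosen with earlier results of these data known, so that these counts of called markers are descriptions. The part of these cell types in the results was not tested. In such bulk samples, fewer cells of a type and less RNA per cell cannot be told apart.

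None of the 10 genes passed the test between ages (edgeR quasi-likelihood test, Benjamini-Hochberg FDR under 0.05 over 13692 genes, n = 2 pools per age), while 2.26% of all genes tested did (1.63% higher and 0.628% lower). Fastkd2 came closest, with 1.56-fold higher expression in old ISCs, followed by Lrpprc (1.20-fold higher) and Polrmt (0.730 times the young level). Of the 10 genes, 8 had a higher and 2 (Polrmt and Polg) a lower mean in old ISCs, and without Slirp 7 of 9 had a higher mean. The median log2 fold change of the 10 was 0.25, beside -0.0049 for all genes tested, and was 0.23 without Slirp, which passed the filter on low counts only through ISC_22mth replicate 1. This median was 0.049 without ISC_22mth replicate 1 (over 9 genes, as Slirp was then not tested) and 0.14 with offsets for GC content and exon length. Dividing by total counts shifted the median of all genes to -0.49 and that of the 10 genes to -0.24, which is 0.25 above that shift, and turned 6 of the 8 genes with higher means below 0. Polrmt, Polg, Fastkd2 and Slirp kept their sign there. An unadjusted p under 0.05 was reached by Fastkd2 and Lrpprc, both higher, 2 of 10 genes beside 16.9% of all genes tested in either direction, 9.26% higher and 7.65% lower. The libraries of both ages did not overlap in 7 of the 10 genes, beside 47.6% of all genes tested. They were higher in old ISCs for 5 genes and lower for 2, beside 24% and 23.6% of all genes. Without Slirp the count was 6 of 9 genes, 4 higher and 2 lower. By other tools, limma voom with sample quality weights (2.34% of all genes called), limma voom without weights (2.22%) and DESeq2 (1.44%) called none of the 10, and edgeR's likelihood ratio test called Fastkd2 only (1 of 10, beside 4.46% of all genes).

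**Figure D1:**
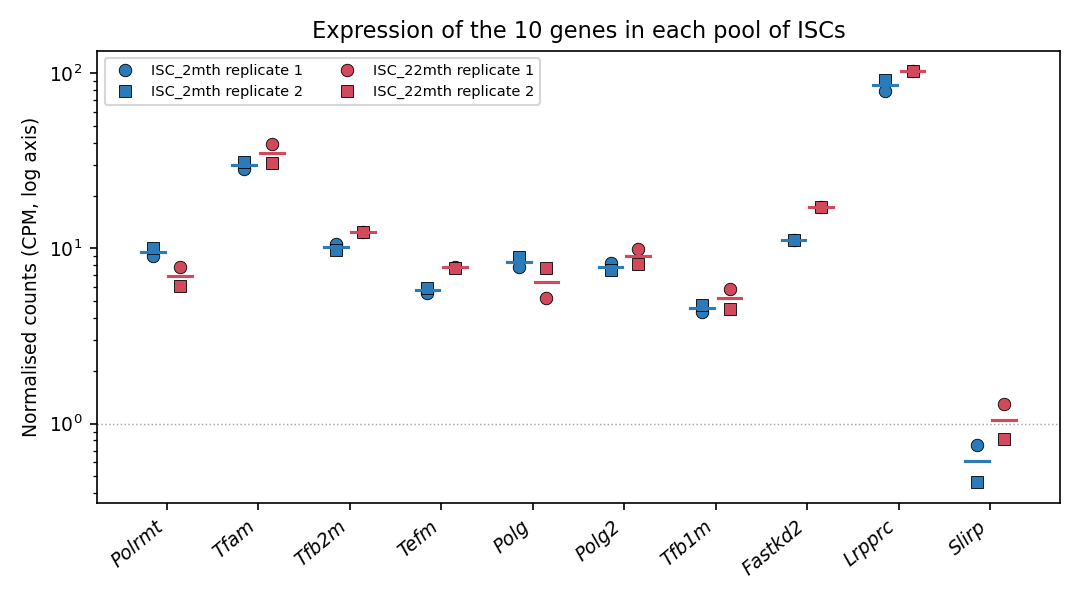
Normalised counts (CPM, log axis) of the 10 genes in each library, with circles for replicate 1, squares for replicate 2 and a short line at the mean of each age. Lrpprc was the most and Slirp the least abundant in counts. For Fastkd2 the old pools were the higher ones (17.3 and 17.3 against 11.1 and 11.1 CPM), and for Polrmt and Polg the lower ones.

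**Figure D2:**
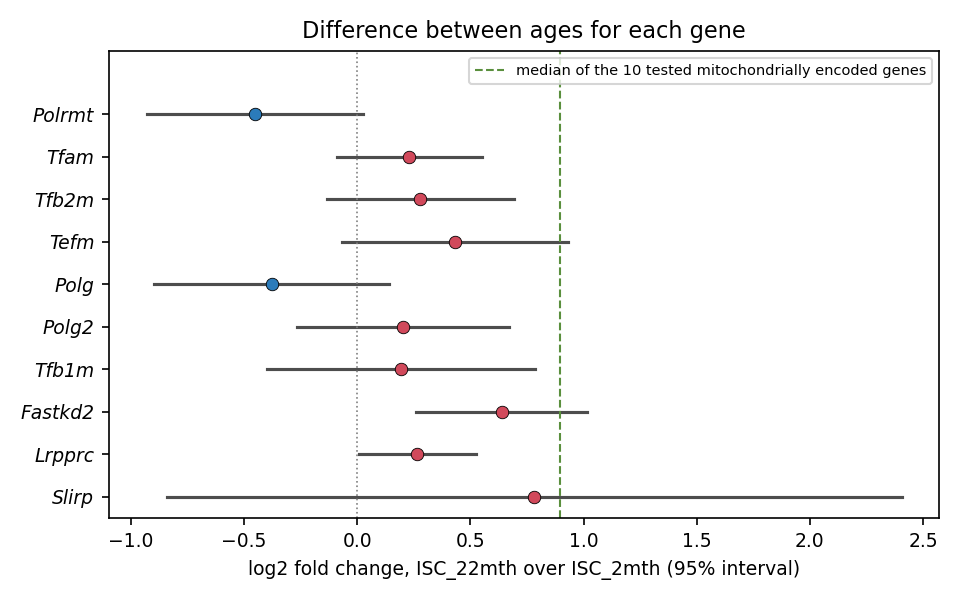
Log2 fold change of each gene (point) with its 95% interval (line) from edgeR's quasi-likelihood test, with 2 pools per age. Only the intervals of Fastkd2 and Lrpprc lie above 0, and the dashed line marks 0.89, the median of the 10 tested mitochondrially encoded genes, which lies above the intervals of Polrmt, Tfam, Tfb2m, Polg, Polg2, Tfb1m and Lrpprc.

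None of the 4 transcription genes passed the test, with a log2 fold change below 0 for Polrmt and above 0 for Tfam, Tfb2m and Tefm. Polrmt, the polymerase itself (chromosome 10, 79736123 to 79746581, minus strand, GENCODE vM21 annotation of GRCm38), had counts of 132 and 151 at 2 months and of 103 and 75 at 22 months. This corresponded to 9.09 and 9.99 CPM against 7.78 and 6.13 CPM. Both old pools were lower than both young pools. Its log2 fold change of -0.45 had a standard error of 0.23 and a 95% interval from -0.93 to 0.024 (edgeR FDR = 0.32), or a fold from 0.525 to 1.02. It was -0.64 without ISC_22mth replicate 1 and -0.29 without ISC_22mth replicate 2. Polrmt has the highest GC content of the 10 genes in its exons (60.3%), and with offsets for GC content and exon length in each library its log2 fold change was -0.23 (FDR = 0.71).

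Tfam, which coats mitochondrial DNA and bends it at promoters (chromosome 10, 71225464 to 71238280, minus strand), was the most abundant of the transcription genes, with counts of 414 and 472 at 2 months and of 522 and 374 at 22 months. Its levels were 28.5 and 31.2 CPM against 39.4 and 30.6 CPM, so that the ages overlapped and only ISC_22mth replicate 1 stood higher. The log2 fold change of 0.23 (standard error 0.15, 95% interval -0.090 to 0.55, edgeR FDR = 0.47) became 0.035 without that library and 0.40 without ISC_22mth replicate 2. ISC_22mth replicate 1 also had the highest sums of Paneth, goblet, enterocyte and tuft cell markers, whose part in the Tfam values was not tested.

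Tfb2m, the factor that opens the promoter (chromosome 1, 179528055 to 179546267, minus strand), measured 10.6 and 9.79 CPM in the young pools against 12.4 and 12.3 CPM in the old pools, with 0.28 as log2 fold change (standard error 0.20, edgeR FDR = 0.50). It shares 31.9% of its possible 50-nt reads with Gm1818, a gene listed at 0 counts in every library, so that its count is uncertain. Tefm, the elongation factor (chromosome 11, 80136678 to 80142175, minus strand), measured 5.58 and 5.95 CPM in the young pools against 7.78 and 7.77 CPM in the old pools, with 0.43 as log2 fold change (standard error 0.24, edgeR FDR = 0.38). For both genes the old pools lay close together and above the young pools, without passing the test. With the offsets for GC content and exon length, the log2 fold changes were 0.13 for Tfb2m and 0.25 for Tefm.

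Of the subunits of DNA polymerase gamma, the catalytic one had lower values in old ISCs, without passing the test, and the accessory one overlapped between ages. Polg (chromosome 7, 79446231 to 79466362, minus strand) had counts of 114 and 134 at 2 months and of 69 and 94 at 22 months, or 7.85 and 8.87 CPM against 5.21 and 7.69 CPM. The old pools were below the young pools but differed from each other by more than the young pools did. A log2 fold change of -0.38 was estimated (standard error 0.25, 95% interval -0.90 to 0.14, edgeR FDR = 0.47), and it was -0.12 without ISC_22mth replicate 1 and -0.68 without ISC_22mth replicate 2. With the offsets for GC content and exon length it was -0.25. Fanci, transcribed from the other strand, shares 921 bp of exon with Polg, and the sources used here do not say whether strand was counted. Polg2 (chromosome 11, 106768253 to 106779537, minus strand) measured 8.20 and 7.48 CPM in the young pools against 9.90 and 8.10 CPM in the old pools. These values overlapped between ages, with a log2 fold change of 0.20 (95% interval -0.27 to 0.67, FDR = 0.70), which was 0.049 without ISC_22mth replicate 1 and 0.34 without ISC_22mth replicate 2.

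Of both genes that act on mitochondrial ribosomal RNA, Fastkd2 had the lowest p of all 10 genes. Fastkd2 (chromosome 1, 63730614 to 63754655, plus strand) had counts of 161 and 168 at 2 months and of 229 and 211 at 22 months. Its normalised levels were 11.1 ± 0.0169 CPM (mean ± SD, n = 2) in young ISCs and 17.3 ± 0.0336 CPM (n = 2) in old ISCs. At such counts, counting error alone is larger than these SDs, so that they do not give the precision of the levels. The ages lay further apart than the replicates of either age. On the log2 scale Fastkd2 was 0.64 higher in old ISCs (standard error 0.18, 95% interval 0.26 to 1.02, edgeR unadjusted p = 0.0023, FDR = 0.073), which ranked 432 of 13692 genes by p. It was 0.64 with any 1 library left out (FDR between 0.068 and 0.31). By scaling to total counts it was 0.15 (FDR = 0.58), and with offsets for GC content and exon length 0.54 (FDR = 0.17). No other gene overlaps its exons and none of its 50-nt stretches occurs in another gene.

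Tfb1m, a paralog of Tfb2m that methylates the small ribosomal RNA (chromosome 17, 3519256 to 3557781, minus strand), had between 55 and 78 counts per library. Its levels of 4.34 and 4.76 CPM in young ISCs, against 5.89 and 4.50 CPM in old ISCs overlapped. On the log2 scale the difference was 0.19 (95% interval -0.40 to 0.79, edgeR FDR = 0.79), and it was -0.016 without ISC_22mth replicate 1.

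Lrpprc, the leucine-rich pentatricopeptide repeat protein that binds mitochondrial mRNAs (chromosome 17, 84705247 to 84790789, minus strand), had the highest counts among the members described, 1149 and 1378 at 2 months against 1354 and 1253 at 22 months. Its levels were 79.1 and 91.2 CPM in the young pools and 102 and 102 CPM in the old pools. Each old pool stood higher than each young pool, and the young pools differed more from each other than the old pools did. A log2 fold change of 0.27 (standard error 0.12, 95% interval 0.0083 to 0.52, edgeR unadjusted p = 0.044, FDR = 0.28) corresponded to a fold interval from 1.01 to 1.44. It was 0.17 without ISC_2mth replicate 1 and 0.37 without ISC_2mth replicate 2.

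Slirp, the partner of Lrpprc (chromosome 12, 87443896 to 87452206, plus strand), had counts of only 11 and 7 at 2 months and of 17 and 10 at 22 months, or 0.758 and 0.463 CPM against 1.28 and 0.818 CPM. These counts say little about Slirp RNA. Of its 3104 exonic bases, 97.8% also lie in exons of Snw1 or Alkbh1 on the other strand, which leaves 68 bases to Slirp alone, and how reads in shared exons were assigned is not given in the sources used here. The log2 fold change of 0.78 had a 95% interval from -0.84 to 2.41 (FDR = 0.66), and it was 0.47 without ISC_2mth replicate 2. Snw1 had between 205 and 265 counts per library and a log2 fold change of 0.13 (FDR = 0.77).

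Levels of different genes were compared per kilobase of exon (RPKM, from normalised CPM and the summed length of all annotated exons). An SD of 2 libraries can fall below counting error, as for Fastkd2 at both ages and Lrpprc in old ISCs. Lrpprc was highest with 10.0 ± 0.999 RPKM in young and 12.0 ± 0.0136 RPKM in old ISCs (mean ± SD, n = 2), followed by Tfam with 6.73 ± 0.431 and 7.89 ± 1.41 RPKM. Tefm (3.67 ± 0.169) and Tfb2m (3.64 ± 0.206) came next in young ISCs and did not differ beyond their spread. The Tfb2m level would be too low if reads in the stretches shared with Gm1818 were not counted, so the order of both genes is uncertain. Polrmt (2.04 ± 0.135), Fastkd2 (1.89 ± 0.00287) and Polg2 (1.80 ± 0.117) formed a group below them in young ISCs. In old ISCs Fastkd2 (2.94 ± 0.00572) stood above Polg2 (2.07 ± 0.292) and Polrmt (1.49 ± 0.249), and Polrmt did not differ beyond its spread from Tfb1m (1.44 ± 0.273). Polg was low at both ages (0.778 ± 0.0666 and 0.600 ± 0.163). With the longest annotated transcript as length, Lrpprc had 19.4 RPKM in young ISCs and Polg2 stood above Fastkd2 and Polrmt there, while Lrpprc, Tfam, Tefm and Tfb2m kept the first 4 places at both ages. With that length Tfb1m (2.15 RPKM) stood above Polrmt (1.62 RPKM) in old ISCs, so the order of these genes depended on the length used.

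Ratios between genes within a library do not depend on how libraries are scaled. With 2 libraries per age, an exact permutation test cannot give a p below 0.333, so these ratios are described without a test, and counting error applies to each. Tfam counts were 3.14 and 3.13 times those of Polrmt in the young pools and 5.07 and 4.99 times in the old pools. The 2 ages did not overlap, and replicates of an age differed little. Polrmt counts were 1.63 and 1.68 times those of Tefm in the young pools, against 1.00 and 0.789 times in the old pools. Both ratios pair the GC-rich Polrmt with genes of an exon GC content of at most 45.6%, and with the offsets for GC content and exon length the log2 fold changes lay closer together, at -0.23 for Polrmt, 0.15 for Tfam and 0.25 for Tefm. Polg counts, in turn, were 0.958 and 1.19 times those of Polg2 in young ISCs, against 0.527 and 0.949 times in old ISCs, which did not overlap by a narrow margin. Exon GC content is 52.1% for Polg and 45.5% for Polg2, and its part in this ratio was not tested. The ratio of Tfb1m to Tfb2m was between 0.364 and 0.486 in all libraries, with both ages overlapping. Its size carries the uncertainty of the Tfb2m count.

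**Figure D3:**
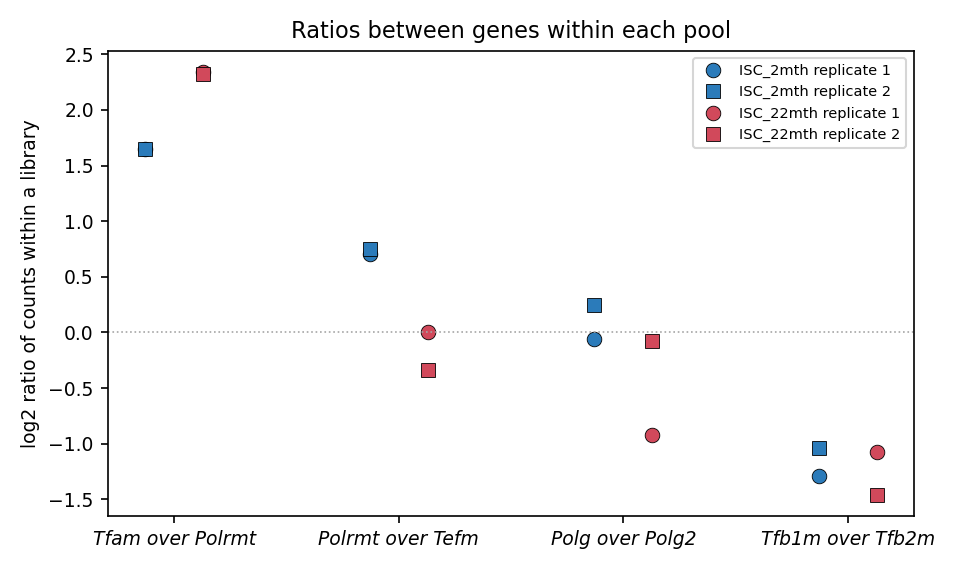
Log2 ratio of the raw counts of 2 genes within each library, for 4 pairs, with circles for replicate 1 and squares for replicate 2. Tfam over Polrmt was 1.65 and 1.64 in young and 2.34 and 2.32 in old pools, and Polrmt over Tefm was 0.70 and 0.75 in young and 0.00 and -0.34 in old pools, whereas Tfb1m over Tfb2m overlapped.

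Transcripts of the mitochondrial genome itself were higher in old ISCs. Of 15 such genes (13 mRNAs and both ribosomal RNAs), 10 were tested, and 9 had FDR under 0.05, all higher, beside 1.63% of all genes called higher, with log2 fold changes of the 10 between 0.65 and 1.34 and a median of 0.89. Of the 13 mRNAs, 5 were listed at 0 or 1 count in all. The sum of the mRNAs was 34587 and 40774 CPM in young ISCs, against 75649 and 68077 CPM in old ISCs. Among the 10 tested genes, which leave out transfer RNAs, the largest difference was that of mt-Nd2 (log2 fold change 1.34, edgeR FDR = 9.7e-07). For mt-Rnr1 and mt-Rnr2 the log2 fold changes were 0.67 (FDR = 7.1e-08) and 0.65 (FDR = 2.7e-05). These genes had 9 calls with total counts, where 33.8% of all genes were called (96 higher and 4536 lower). With offsets for GC content and exon length there were 8 calls (0.913% of all genes, 95 higher and 30 lower). With offsets and a replicate block together there were 6 calls (0.387%, 42 higher and 11 lower). The calls lost there were mt-Rnr2 with offsets (0.45, FDR = 0.050), and mt-Rnr1 (0.50, FDR = 0.072), mt-Rnr2 (0.46, FDR = 0.12) and mt-Cytb (0.64, FDR = 0.072) with both. Differences were smaller with total counts, at 0.18 for mt-Rnr1, 0.17 for mt-Rnr2, 0.36 for mt-Cytb, 0.35 for mt-Co1 and 0.86 for mt-Nd2.

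Of 48 tested genes in 4 lists (termination factors, FAST kinases, RNA processing and decay, DNA replication and nucleoid), 1 passed the test, beside 2.26% of all genes. This was Ptcd2, a pentatricopeptide repeat protein that acts on mitochondrial RNA, with counts of 163 and 179 at 2 months and of 266 and 228 at 22 months (log2 fold change 0.75, standard error 0.18, edgeR FDR = 0.030). Its call was lost with DESeq2 (0.74, FDR = 0.083), total counts (0.26, FDR = 0.31), offsets for GC content and exon length (0.63, FDR = 0.098) and block with offsets (0.63, FDR = 0.17). It was also lost without ISC_2mth replicate 1 (0.71, FDR = 0.18) or replicate 2 (0.78, FDR = 0.076).

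Among 25 genes of RNA processing, modification and decay the median log2 fold change was 0.10, with 15 above and 10 below 0. Besides Ptcd2, the lowest p belonged to Trmt10c, a subunit of mitochondrial RNase P (0.54, FDR = 0.12), and Pnpt1, the polynucleotide phosphorylase (0.41, FDR = 0.15). Trmt10c was 0.34 without ISC_2mth replicate 1, and Pnpt1 was 0.28 without ISC_2mth replicate 2. Of the termination factor family MTERF, 4 of 5 genes were tested, led by Mterf3 (0.47, FDR = 0.21), Mterf1a (-0.62, FDR = 0.66) and Mterf4 (0.20, FDR = 0.76). Mterf1a, with between 11 and 24 counts per library, passed the filter on low counts only through the young group, where it was the higher. The 5 other FAST kinase genes, relatives of Fastkd2, had a median of -0.035 and a highest value of 0.025. Fastk (-0.40, FDR = 0.41), Tbrg4 (-0.053, FDR = 0.91) and Fastkd5 (-0.035, FDR = 0.96) had the lowest p among them, so the value of Fastkd2 (0.64) stood above those of its relatives, a difference that was not tested.

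Genes of mitochondrial DNA replication and the nucleoid had a median of -0.12, with 5 of 14 above and 9 below 0. Atad3a, a membrane protein linked to nucleoids (-0.37, FDR = 0.23), the topoisomerase Top3a (-0.63, FDR = 0.40) and the nuclease Exog (-0.30, FDR = 0.58) had the lowest p. With 1 library left out, Top3a ranged from -1.08 (without ISC_22mth replicate 2) to -0.11 (without ISC_2mth replicate 2). Of 8 nuclear regulators, 7 had values below 0 (median -0.20) and none passed the test. Pprc1, a PGC-1 related coactivator, had a log2 fold change of -0.50 (FDR = 0.13) and Nrf1, nuclear respiratory factor 1, of -0.46 (FDR = 0.18). Pprc1 was called without ISC_22mth replicate 1 (-0.79, FDR = 0.0016) but had -0.26 (FDR = 0.46) without ISC_22mth replicate 2. Nrf1 had counts of 258 and 278 at 2 months and of 168 and 166 at 22 months, and the ages did not overlap. Gabpb1, a subunit of GABP, had a log2 fold change of 0.47 (FDR = 0.16), and its counts were 221 and 291 at 2 months and 318 and 291 at 22 months, with 0.31 as log2 fold change without ISC_2mth replicate 1. Under total counts, values of these lists shifted with those of all genes, so that Mterf3 (-0.013), Mterf4 (-0.30), Pnpt1 (-0.083) and Gabpb1 (-0.013) changed sign.

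**Figure D4:**
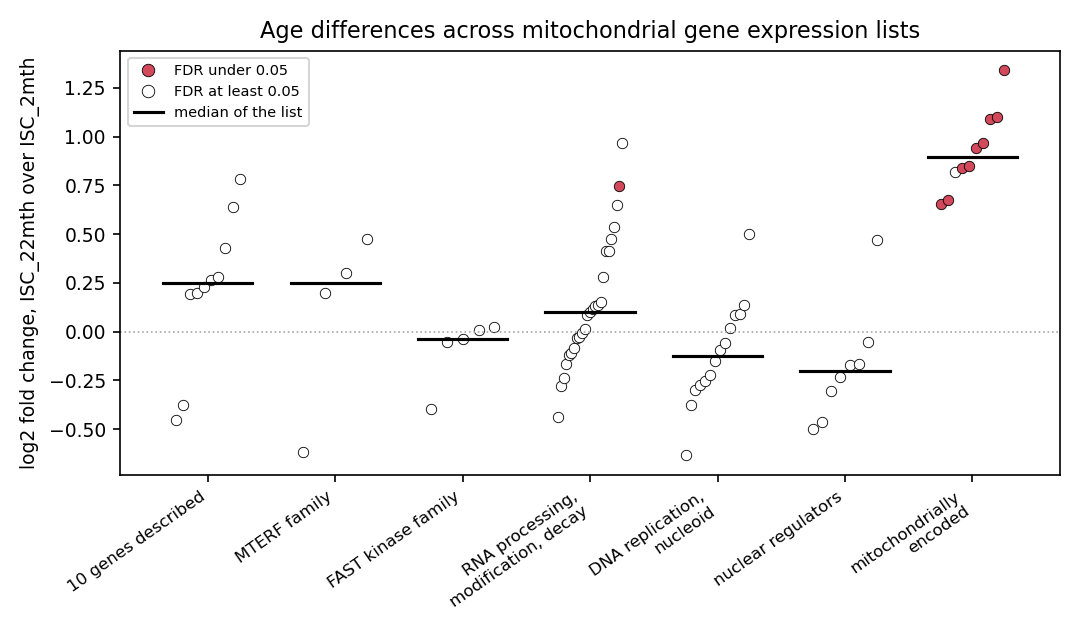
Log2 fold change (vertical axis) of each tested gene, sorted within its list, with filled points for FDR under 0.05 and a line at the list's median. The 10 genes described had a median of 0.25, the nuclear regulators of -0.20 and the mitochondrially encoded genes of 0.89. Outside the mitochondrial genome, Ptcd2 is the only filled point.

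Under other tests, scalings and filters the 10 genes kept close to their values, with the exception of total counts and of the offsets for GC content and exon length. With total counts, Polrmt (-0.94, FDR = 0.0044) and Polg (-0.86, FDR = 0.012) were called lower, 2 of 10 genes beside 33.8% of all genes, and Tfam, Tfb2m, Tefm, Tfb1m, Polg2 and Lrpprc changed sign. Relative to the median of all genes under that scaling, Polrmt stood at -0.45 and Fastkd2 at 0.64, as with TMM. All calls of that scaling were 96 higher and 4536 lower genes, beside 223 higher and 86 lower with TMM. Scaling to counts outside mitochondrially encoded genes, chosen after seeing the data, called 178 genes higher and 142 lower (2.34% of all genes) and none of the 10. The replicate block called Fastkd2 (1 of 10, beside 4.56% of all genes). None of the 10 was called with RLE size factors (2.26%), upper quartile scaling (2.12%), TMM without mitochondrial and ribosomal RNA loci (2.28%), filterByExpr (2.02%), genes left unfiltered (2.24%), a minimum of 10 counts per library (2.11%, Slirp not tested), the offsets (0.913%) or block and offsets together (0.387%). Nor was any called without ISC_2mth replicate 1 (1.15%), ISC_2mth replicate 2 (2.17%), ISC_22mth replicate 1 (4.8%, Slirp not tested) or ISC_22mth replicate 2 (5.22%).

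**Figure D5:**
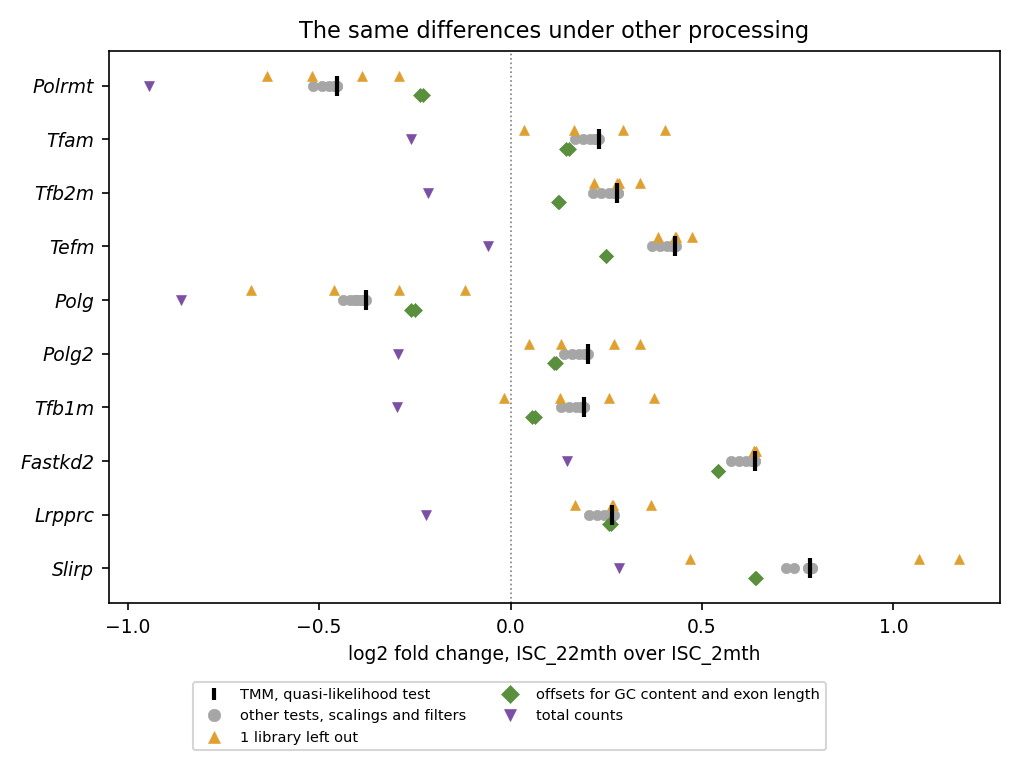
Log2 fold change of each gene under TMM and the quasi-likelihood test (bar), other tests, scalings and filters (grey circles), with 1 library left out (triangles pointing up), with offsets for GC content and exon length (diamonds) and with total counts (triangles pointing down). Values under total counts lie to the left of all others. Polrmt and Polg are below 0 and Fastkd2 and Slirp above 0 in every setting drawn.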

How the data were processed

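RNA of sorted ISCs was measured in 4 libraries, 2 per age, each from a pool of 5 animals. Per the labels and the study's methods, the authors trimmed reads with Trimmomatic (0.30), aligned them with STAR (2.4.2a) to GRCm38 and counted reads in exons of GENCODE vM15 with featureCounts, and the deposited values are raw counts per gene. The strand setting and the treatment of reads with several alignments are not given in the sources used here. Ages were taken from the sample titles.

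A gene was tested if any library held over 5 counts and over 1 CPM of it (13692 genes). Ages were compared with edgeR (4.0.16, R 4.3.3) by TMM, glmQLFit and glmQLFTest, with Benjamini-Hochberg adjustment over all genes tested. Standard errors came from the log2 fold change and F, and 95% intervals from the t quantile. Alternatives used limma 3.58.1, DESeq2 1.42.0, other scalings and filters, a replicate block, and lowess offsets (span 0.3) for GC content and exon length. The study's methods name both voom with quality weights and edgeR's likelihood ratio test for comparisons of ages, and both were used here as alternatives.

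A count of 3, the detection floor, equals between 0.198 and 0.245 CPM. Since SPIA copies were counted with no identifier per molecule, this floor covers counting error only. Positions, lengths and GC content came from GENCODE vM21 of GRCm38, matched by symbol for 47976 of 52459 genes. Raw counts of replicates differed by more than sampling noise (chi-square per gene 10.3 in ISC_2mth and 7.53 in ISC_22mth). This mean includes the mitochondrially encoded genes and was taken without TMM. It therefore also holds differences in library composition and does not give the spread of a typical gene. Separate pools are taken as the replicates. Named were all 10 genes and, of each wider list, the 3 genes of lowest p and any gene with FDR under 0.05. The Tfam promoter was shown after its values were seen. Members and lists were chosen with earlier results of these data known. Protein sequences were not used here.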

Additional observations from a re-analysis of the deposited data

How the results depend on the processing

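The number of genes called (309) was 197 with DESeq2, 611 with the likelihood ratio test, 4632 with total counts, 554 without a filter on low counts, 125 with offsets for GC content and exon length, 53 with a replicate block and offsets together, and between 151 and 710 with 1 library left out (lowest without ISC_2mth replicate 1, highest without ISC_22mth replicate 2). In fits that leave a library out, 1 age has 1 pool, which is assumed to vary like the other age. Of the 10 genes, none was called with TMM, 1 with the likelihood ratio test, 2 with total counts, 1 with the replicate block and none with any library left out. Their median log2 fold change was -0.24 with total counts, 0.14 with offsets, 0.14 with block and offsets, and between 0.049 (without ISC_22mth replicate 1, over 9 genes) and 0.36 (without ISC_22mth replicate 2) with 1 library left out. Calls in the list of RNA processing numbered 0 with DESeq2, 4 with total counts, 0 with offsets and 0 with block and offsets, and between 0 and 1 with 1 library left out. With total counts, where 33.8% of all genes were called (4536 of 4632 lower), calls also numbered 2 in the FAST kinase list, 7 in the replication list and 6 among nuclear regulators, which had 1 with the replicate block and between 0 and 1 with 1 library left out.

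Signs changed with total counts for Tfam (-0.26), Tfb2m (-0.21), Tefm (-0.058), Tfb1m (-0.30), Polg2 (-0.29), Lrpprc (-0.22), Mterf3 (-0.013), Mterf4 (-0.30), Pnpt1 (-0.083) and Gabpb1 (-0.013), where the median of all genes was -0.49. Tbrg4 was 0.027 with offsets and 0.022 with block and offsets. With 1 library left out, Tfb1m ranged from -0.016 (without ISC_22mth replicate 1) to 0.37, Mterf4 from -0.019 (without ISC_2mth replicate 2) to 0.45, Tbrg4 from -0.16 to 0.050 (without ISC_22mth replicate 2) and Exog from -0.57 to 0.026 (without ISC_2mth replicate 1). The cause was not tested.

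Replicate numbers do not pair the pools, which are separate animals, and deviations of same-numbered libraries correlated at -0.00015. The replicate block gave 624 calls and an FDR of 0.041 for Fastkd2 and of 0.037 for Pprc1. Scaling to counts outside mitochondrially encoded genes, chosen after seeing the data, gave a median of 0.19 for the 10 genes, 320 calls and none among the 10. At 55 to 229 counts per library, Polrmt, Polg, Polg2, Tefm, Tfb1m, Tfb2m and Fastkd2 had standard errors between 0.18 and 0.28 on the log2 scale, which hold counting error and the spread between pools together.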

Other observations

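Counts of mitochondrially encoded mRNAs per count of each nuclear gene, a ratio within a library that does not depend on scaling, are given here as values without a test. Per Polrmt count there were 3804 and 4082 such counts in the young pools and 9721 and 11100 in the old pools. Per Tfam count there were 1213 and 1306 in young and 1918 and 2226 in old pools. Per Lrpprc count there were 437 and 447 in young and 740 and 664 in old pools. Per Fastkd2 count there were 3119 and 3669 in young and 4372 and 3946 in old pools, the narrowest gap of these 4 genes. On the log2 scale the mean difference between ages was 1.40 for Polrmt, 1.33 for Polg, 0.72 for Tfam, 0.67 for Lrpprc and 0.30 for Fastkd2. Because the same mRNA counts are divided by each gene, this order follows from the log2 fold changes given above and adds nothing to them. The ratios use raw counts, without the offsets for GC content and exon length.

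Fanci, whose exons overlap those of Polg, had counts of 76 and 99 at 2 months and of 62 and 47 at 22 months (log2 fold change -0.46, edgeR FDR = 0.43), the same direction as Polg. Exons of Tfb1m overlap those of Tiam2 over 142 bp and exons of Polg2 those of Milr1 over 132 bp, where unstranded reads could come from both genes.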
